A study of Mus musculus with 6 samples.

Results

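The 9 genes described here encode proteins of the myelin sheath membrane: Mbp, Mobp, Pllp and Mal, whose proteins lie in or are sent to compact myelin, and Cnp, Mag, Mog, Cldn11 and Tspan2, whose proteins lie in non-compact regions, at the sheath's surfaces or in its junctions, or span the membrane as a tetraspanin. They were taken by name from the deposited tables of gene counts and FPKM (fragments scaled to gene length and library total), and each matched 1 of the 35275 gene identifiers. All 9 passed the filter on low counts, which left 16938 genes to test. The knockout group, cKO, held 3 mice of genotype Pdgfra-CreER:Parp1fl/fl, in which tamoxifen activates a Cre recombinase in cells that use the Pdgfra promoter, mainly oligodendrocyte precursors, and so deletes Parp1, the gene of the main poly(ADP-ribose) polymerase. The control group held 3 Parp1fl/fl littermates without Cre. Mice of both groups were C57BL/6, with no sex given in the labels, received intraperitoneal tamoxifen on postnatal days 1, 2 and 3, and were sampled on postnatal day 9 as bulk forebrain, so that the RNA of oligodendrocytes was mixed with that of all other forebrain cells. The comparison asked how deletion of Parp1 in this lineage bears on the expression of myelin genes.

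Myelin is made by oligodendrocytes, which wrap axons in many layers of membrane. Where the cytoplasm is squeezed out the layers form compact myelin, and where it remains they form channels, loops and the innermost layer facing the axon. Oligodendrocytes switch their myelin genes on in an order. Cnp, Mbp, Mag and Tspan2 are expressed from the start of differentiation and are called early here, and Mobp, Mog and Mal, which rise later as sheaths are built, are called late. This division follows textbook knowledge of rodent brain, and Cldn11 and Pllp were assigned to neither class.

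The libraries held 17262042 to 29310193 counts, and the 9 genes together took 0.0295% to 0.0321% of the counts in cKO libraries and 0.0492% to 0.0616% in control libraries. Parp1 was at 80.8, 79.7 and 79.1 CPM (counts scaled to the library total and by TMM) in cKO replicates 1, 2 and 3, and at 90.8, 97.3 and 85.6 CPM in control replicates 1, 2 and 3. The groups did not overlap, but Parp1 did not pass (log2 fold change -0.19 for cKO over control, 95% confidence interval -0.33 to -0.05, edgeR adjusted p = 0.572). This count covers all exons in all cells, so it is no measure of deletion within the lineage. Control replicate 3 stood apart, with the summed level of 10 thalamic genes at 810.5 CPM, where the rest had 360 to 415 CPM, and that of 10 striatal genes at 339 CPM, where the rest had 960 to 1229 CPM. Control replicate 1 alone expressed the Y-linked gene Ddx3y, at 1123 counts against at most 1 elsewhere. The female-expressed gene Xist was at 3 counts in that library and at 20196 to 27661 in the rest. By these genes that control was male and the rest female, so the sexes were not balanced between the groups. Every pair of libraries differed by more than sampling noise (chi-square per degree of freedom from 4.31 to 24.0).

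The start sites of these genes carry different short motifs, and the 4 promoters that held a core motif are shown, those of the called genes Mag and Cnp and of Mobp and Mog, which were not called. Sequences are from RefSeq on GRCm38.p6, which had an entry for 8 of the 9 genes, all but Mbp, and run 5′ to 3′ toward the gene. Windows of 250 bases before the start were searched on both strands, and only bases before every annotated start are printed. Capitals mark the SOX core ACAAAG or its reverse CTTTGT, and the core of the Myrf motif, CTGGCAC or CTGGTAC, or its reverse. No 2 matches overlapped.
Mag, chr7:30914923-30915113, minus strand: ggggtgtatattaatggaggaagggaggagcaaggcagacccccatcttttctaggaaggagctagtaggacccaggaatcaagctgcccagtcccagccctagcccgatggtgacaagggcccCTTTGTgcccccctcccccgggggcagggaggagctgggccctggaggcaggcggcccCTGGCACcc
Cnp, chr11:100574689-100574903, plus strand: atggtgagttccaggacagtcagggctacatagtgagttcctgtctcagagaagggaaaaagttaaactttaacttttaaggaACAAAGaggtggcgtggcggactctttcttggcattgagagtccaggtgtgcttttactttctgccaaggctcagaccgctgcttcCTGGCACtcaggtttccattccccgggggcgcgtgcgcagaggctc
Mobp, chr9:120149492-120149706, plus strand: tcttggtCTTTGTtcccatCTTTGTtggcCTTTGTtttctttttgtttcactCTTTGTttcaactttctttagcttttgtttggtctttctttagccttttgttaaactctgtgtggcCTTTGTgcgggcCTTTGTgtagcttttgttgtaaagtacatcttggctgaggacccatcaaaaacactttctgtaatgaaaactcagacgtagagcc
Mog, chr17:37023399-37023648, minus strand: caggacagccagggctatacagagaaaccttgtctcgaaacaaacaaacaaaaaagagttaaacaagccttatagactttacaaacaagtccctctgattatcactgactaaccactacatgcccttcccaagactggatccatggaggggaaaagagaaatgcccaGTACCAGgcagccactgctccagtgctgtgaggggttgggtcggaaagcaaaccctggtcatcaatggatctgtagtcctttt

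Mag and Cnp each held 1 CTGGCAC, starting 68 and 81 bases before the RefSeq start, and 1 SOX core. Across all 32851 promoter windows, 4.19% held CTGGCAC and 16.5% held the SOX core. Mog had no SOX core and 1 CTGGTAC, read as GTACCAG on the printed strand, a motif found in 1.83% of windows. The Mobp promoter held 6 SOX cores, all read as CTTTGT, which was the highest number in any window, and 2 of the 32851 windows held 5 or more. Pllp, a called gene, had neither core in its window, and nor did Cldn11, Mal and Tspan2. All but 9 bases of the Tspan2 window lie past the gene's GENCODE start, so that window says little of its promoter. Among the 8 genes with a window, which leave out the called gene Mbp, the cores did not divide called genes from the rest. The E-box CANNTG, bound by factors of the Olig2 class, was found 2 times each in Pllp and Tspan2 and 1 time each in Mag and Cnp, and in 66.2% of all windows. A match is a run of letters and no measure of binding.

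Of the 9 myelin genes, 4 fell in the cKO forebrains and none (0) rose. Pllp, Mbp and Mag fell by similar factors, 2.32 to 2.41, and Cnp fell by a factor of 1.44. Across the transcriptome, 0.207% of the tested genes fell and 0.059% rose by edgeR's quasi-likelihood test at an adjusted p under 0.05. At an unadjusted p under 0.05, 6 of the 9 were lower, Tspan2 and Cldn11 besides the called genes, against 2.75% of all tested genes, and none (0) was higher, against 3.52%. In 5 of the 9, all 3 cKO libraries lay below all 3 control libraries, against 5.86% of tested genes, and in 0 of the 9 they lay above, against 6.08%. The median log2 fold change was -0.52 over the 9 genes and -6.8e-04 over all tested genes. In bulk forebrain, fewer cells of a type and less RNA per cell cannot be told apart.

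**Figure D1:**
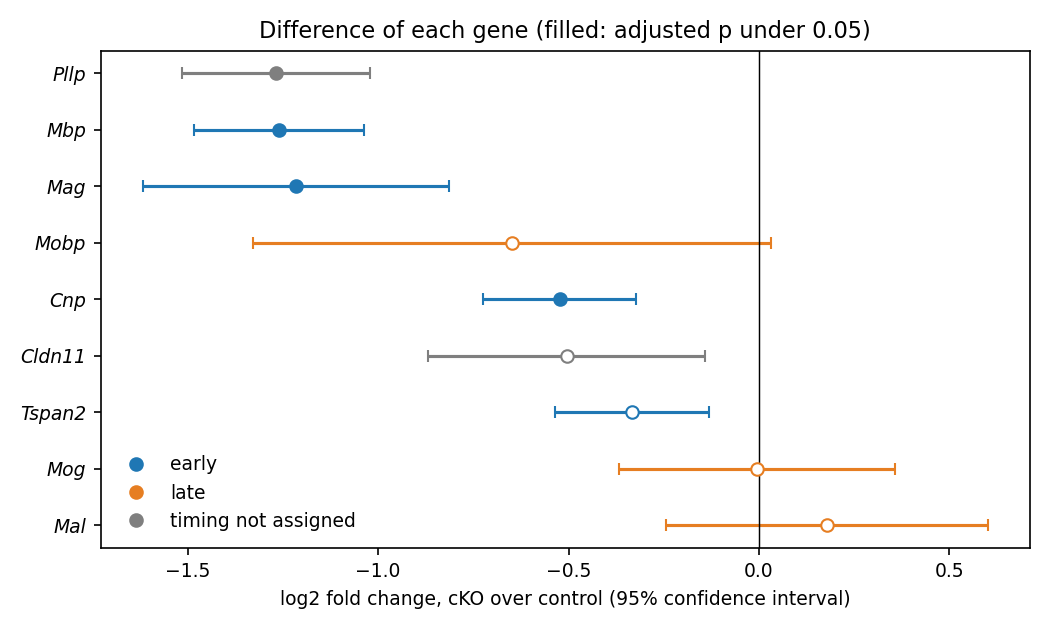
Log2 fold change of cKO over control for each of the 9 genes (x axis) with its 95% confidence interval, from edgeR's quasi-likelihood fit of 3 cKO and 3 control libraries; colours give the timing class and filled points passed at an adjusted p under 0.05. Pllp, Mbp and Mag lie near -1.2, Cnp at -0.52, the late genes Mog and Mal near 0, and the late gene Mobp at -0.65 with the widest interval.

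Among the compact myelin genes, Mbp and Pllp fell by similar amounts. Mbp encodes myelin basic protein, which binds the cytoplasmic faces of adjoining layers and holds them together. It was at 110.9, 119.1 and 122.4 CPM in cKO replicates 1, 2 and 3, and at 277.5, 240.4 and 326.4 CPM in control replicates 1, 2 and 3. The highest cKO library was at about the midpoint between 0 and the lowest control library. Mbp was 2.39-fold lower in cKO (95% confidence interval 2.05 to 2.80; log2 fold change -1.26, edgeR adjusted p = 2.23e-04). The gene spans 110492 bp on chromosome 18 (82475146 to 82585637, GRCm38) and has 16 annotated transcripts. Among them are the golli transcripts from an upstream start, also made outside myelinating cells, which a count per gene does not separate.

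Pllp encodes plasmolipin, a small proteolipid that crosses the membrane several times and belongs, with the Mal protein, to the MARVEL family. It was at 9.13, 9.17 and 8.31 CPM in cKO replicates 1, 2 and 3, and at 23.7, 21.1 and 19.3 CPM in control replicates 1, 2 and 3. The groups were well apart and each was tight. Pllp was 2.41-fold lower in cKO (95% confidence interval 2.03 to 2.86; log2 fold change -1.27, edgeR adjusted p = 2.02e-04), the smallest adjusted p of the 9 genes. Its exons (chromosome 8, 94674894 to 94696278) overlap those of Gm45767 on the opposite strand by 1128 bp. The kit marks strand, but the strand setting of the counting is not given in the sources used here, so the Pllp count is less certain.

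The other 2 compact myelin genes did not pass. Mobp encodes a small basic protein of the cytoplasmic face, similar in location to Mbp, and was at 4.98, 4.81 and 5.01 CPM in cKO replicates 1, 2 and 3, and at 6.24, 4.97 and 11.9 CPM in control replicates 1, 2 and 3. The highest value was that of control replicate 3, the library with high thalamic levels, and control replicate 2 lay within the cKO range. The log2 fold change was -0.65 (95% confidence interval -1.33 to 0.03, edgeR adjusted p = 0.816) with all libraries and -0.18 (edgeR adjusted p = 0.988) without control replicate 3. Without control replicate 1 it was -0.77 (edgeR unadjusted p = 0.047, adjusted p = 0.662). Without control replicate 2 it was -0.89 (edgeR unadjusted p = 0.0036, adjusted p = 0.324). The part of the thalamic share in the Mobp level was not tested. Mal encodes a proteolipid that carries lipid rafts and cargo to the myelin membrane. It was at 4.49, 6.42 and 5.77 CPM in cKO replicates 1, 2 and 3, and at 4.16, 4.60 and 5.98 CPM in control replicates 1, 2 and 3. The groups overlapped, and the log2 fold change of Mal was 0.18 (95% confidence interval -0.24 to 0.60, edgeR adjusted p = 0.908).

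Cnp and Mag, both proteins of non-compact myelin, fell. Cnp encodes the cyclic nucleotide phosphodiesterase that keeps cytoplasmic channels open within the sheath and is used as an early marker of the lineage. It was at 94.6, 112.9 and 112.9 CPM in cKO replicates 1, 2 and 3, and at 170.1, 137.1 and 153.9 CPM in control replicates 1, 2 and 3. The groups did not overlap, though the gap was narrow beside that of Mbp. Cnp was 1.44-fold lower in cKO (95% confidence interval 1.25 to 1.65; log2 fold change -0.52, edgeR adjusted p = 0.0452). Its exons (chromosome 11, 100574904 to 100591729) overlap those of the chaperone gene Dnajc7 on the opposite strand by 154 bp. Dnajc7 averaged 126 ± 6.04 CPM in cKO forebrains against 127 ± 7.27 CPM in control forebrains (SD, n = 3 each).

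Mag encodes myelin-associated glycoprotein, a lectin of the innermost layer that contacts the axon. It was at 4.69, 5.57 and 6.85 CPM in cKO replicates 1, 2 and 3, and at 13.4, 10.4 and 16.2 CPM in control replicates 1, 2 and 3. All cKO libraries lay below all controls. Mag was 2.32-fold lower in cKO (95% confidence interval 1.76 to 3.07; log2 fold change -1.22, edgeR adjusted p = 0.0151). The gene lies on chromosome 7, 30899176 to 30914873, and its exons overlap no other annotated gene. Its counts ran from 95 to 197 in cKO libraries and from 227 to 355 in controls.

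Calls of Mag and Cnp depended on single libraries. By edgeR, Mag lost its call without cKO replicate 1 (adjusted p = 0.0946), cKO replicate 2 (0.119) or control replicate 1 (0.1003). Cnp kept it only without control replicate 2 (adjusted p = 0.0182), with values from 0.0889 to 0.191 without any other single library. Mbp and Pllp passed each time, at adjusted p of at most 0.00496. On the log2(FPKM + 1) scale neither Mag nor Cnp passed (limma adjusted p = 0.0752 and 0.132). Mag and Cnp lay below 0 with each library left out, at -1.38 to -1.05 and -0.60 to -0.44 on the log2 scale.

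**Figure D2:**
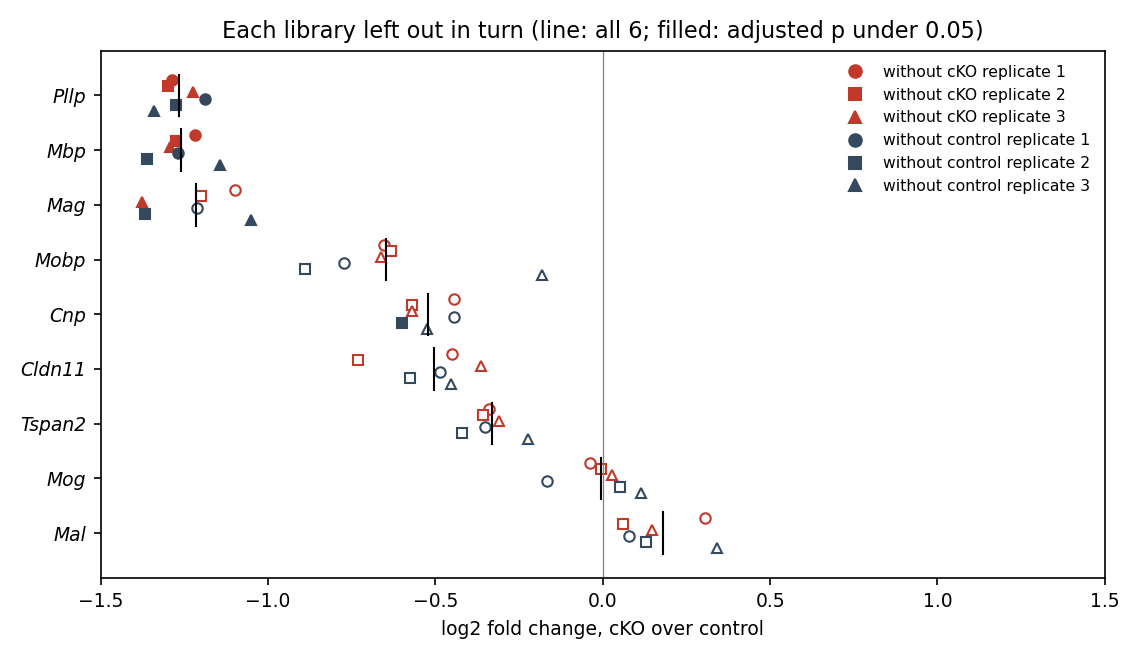
Log2 fold change of cKO over control (x axis) of each gene when 1 of the 6 libraries was left out, by edgeR; symbols name the library left out, filled symbols passed at an adjusted p under 0.05 and the line marks the value with all 6. Mbp and Pllp are filled throughout, and Mobp moves from -0.65 to -0.18 without control replicate 3 and to -0.89 without control replicate 2.

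Mog, the myelin oligodendrocyte glycoprotein of the outermost surface and a late gene, had nearly the same mean in both groups. It was at 8.14, 7.71 and 7.37 CPM in cKO replicates 1, 2 and 3, and at 5.77, 8.33 and 9.03 CPM in control replicates 1, 2 and 3. The cKO values lay within the control range. The log2 fold change was -0.00 (edgeR adjusted p = 0.998), and its 95% confidence interval of -0.37 to 0.36 left out a difference as large as that of Mbp, Pllp or Mag. Mog lies on chromosome 17, 37010743 to 37023398.

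Cldn11 and Tspan2 were lower on average and did not pass. Cldn11 encodes claudin-11, which forms the tight junction strands between myelin layers. It was at 8.29, 11.55 and 7.20 CPM in cKO replicates 1, 2 and 3, and at 13.11, 11.50 and 13.73 CPM in control replicates 1, 2 and 3. The groups overlapped by 1 library each, cKO replicate 2 and control replicate 2. The log2 fold change of Cldn11 was -0.50 (95% confidence interval -0.87 to -0.14, edgeR adjusted p = 0.563), and -0.73 without cKO replicate 2. Tspan2 encodes a tetraspanin of the early oligodendrocyte membrane and was at 45.24, 45.95 and 43.06 CPM in cKO replicates 1, 2 and 3, and at 54.8, 49.3 and 64.9 CPM in control replicates 1, 2 and 3. Here the groups did not overlap, but Tspan2 did not pass (log2 fold change -0.33, 95% confidence interval -0.53 to -0.13, edgeR adjusted p = 0.339). Exons of Tspan2 share 88 bp with the antisense gene Tspan2os, which had 3 to 13 counts per library.

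**Figure D3:**
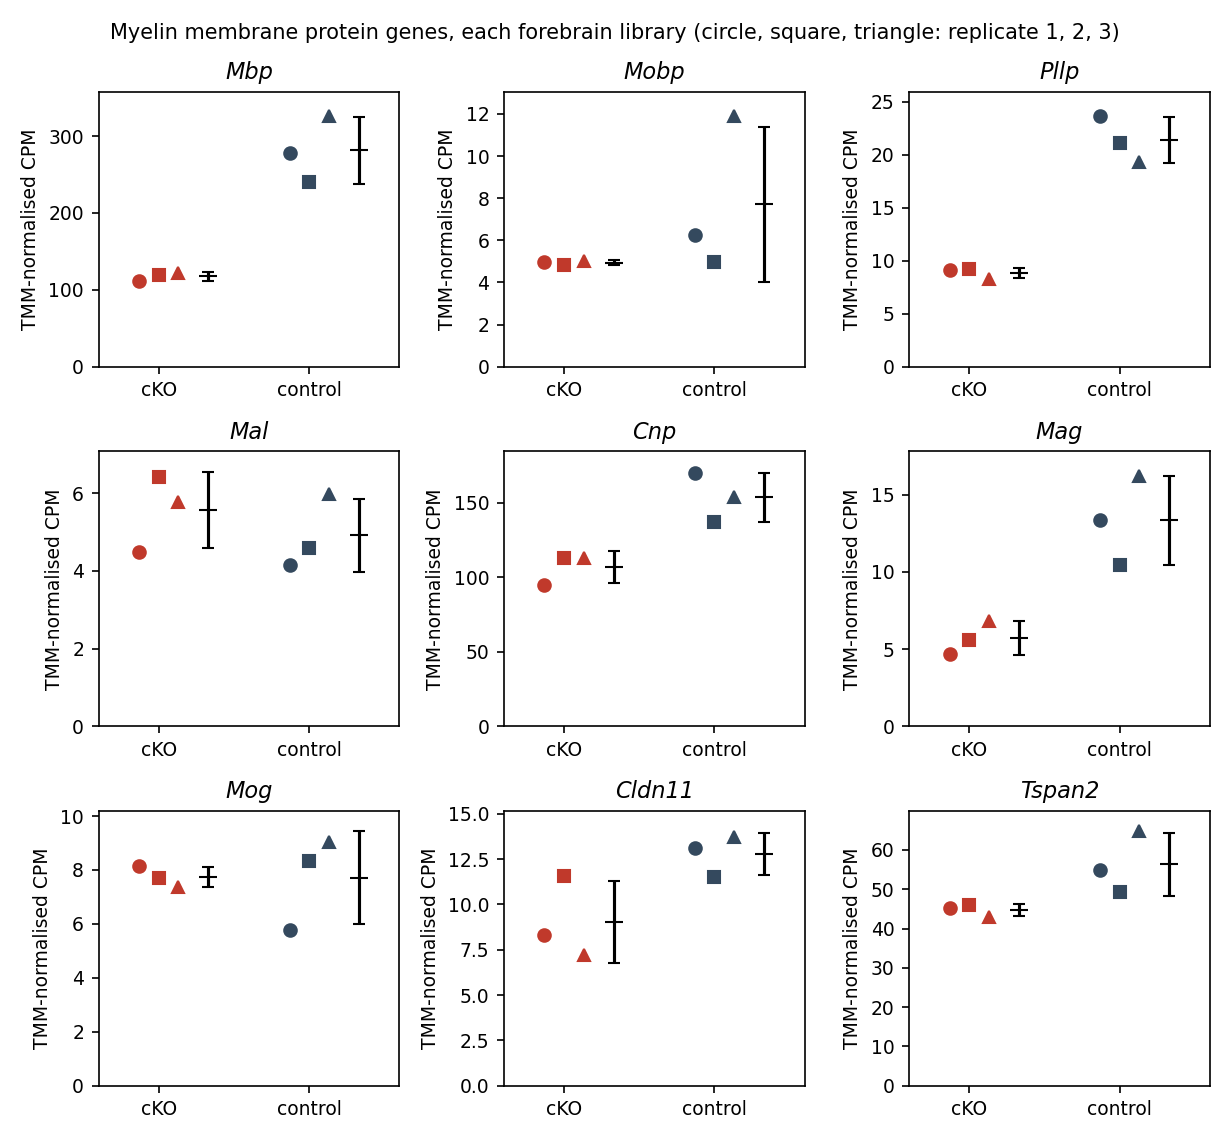
TMM-normalised CPM (y axes, from 0) of each gene in the 3 cKO and 3 control libraries; symbols give the replicate and the bars beside them the mean ± SD. The groups stand apart for Mbp, Pllp, Cnp, Mag and Tspan2, and overlap for Mobp, Mal, Mog and Cldn11.

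Levels per gene length, which allow genes to be compared, gave the 9 genes a different order in each group. In cKO libraries Cnp was highest at 36.6 ± 3.06 FPKM and Mbp next at 24.4 ± 0.799 FPKM, with no overlap between them. In control libraries Mbp was at 58.7 ± 8.45 FPKM and Cnp at 53.0 ± 5.58 FPKM, and their ranges overlapped (SD, n = 3 mice each). Tspan2 was next in both groups, at 9.95 ± 0.465 FPKM in cKO and 12.6 ± 1.65 FPKM in controls. Below it, Cldn11, Pllp and Mog overlapped in cKO at 4.87, 4.68 and 4.53 FPKM. In controls Pllp was at 11.3 FPKM, overlapping Tspan2 and clear of Cldn11 at 6.93 FPKM. Mag, Mog, Mobp and Mal were at 5.48, 4.53, 2.34 and 1.77 FPKM in controls, and each overlapped its neighbour in that order. In cKO libraries Mag at 2.33 FPKM overlapped Mal at 1.99 FPKM, and Mobp was lowest at 1.5 FPKM.

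The sum of the 9 genes was 90.9 ± 4.37 FPKM in cKO and 157 ± 15.5 FPKM in controls (SD, n = 3 mice each). Mbp made up 26.9 ± 0.799% of this sum in cKO and 37.4 ± 2.11% in controls, and Cnp 40.3 ± 1.75% in cKO and 33.9 ± 2.74% in controls. Mog took 5.0 ± 0.540% in cKO and 2.92 ± 0.732% in controls, and Mal 2.18 ± 0.260% in cKO and 1.13 ± 0.174% in controls. Pllp took 5.16 ± 0.486% in cKO and 7.29 ± 1.15% in controls, Mag 2.56 ± 0.407% in cKO and 3.48 ± 0.395% in controls, and Tspan2 10.97 ± 0.810% in cKO and 8.01 ± 0.430% in controls. For these 7 genes the 3 cKO shares lay on one side of the 3 control shares: below for Mbp, Pllp and Mag, above for Cnp, Mog, Mal and Tspan2. The shares of Cldn11 and Mobp overlapped. These shares are parts of 1 whole and do not vary independently.

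**Figure D4:**
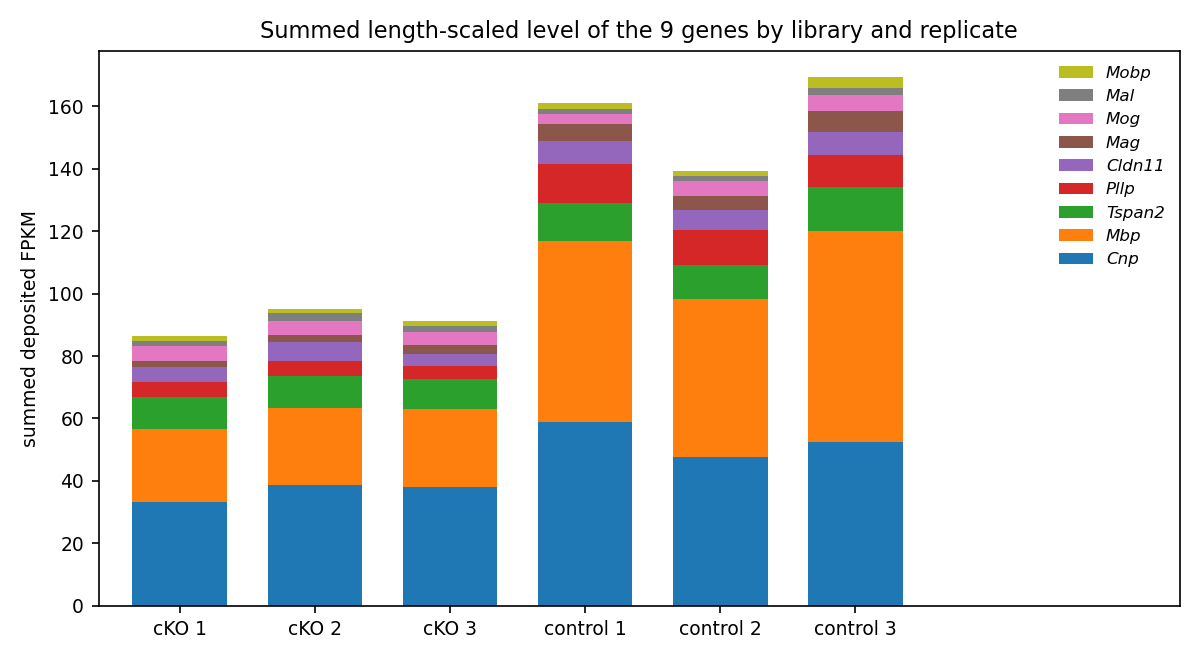
Deposited FPKM of the 9 genes (y axis, from 0), stacked for each library, with cKO replicates 1 to 3 on the left and control replicates 1 to 3 on the right. The cKO stacks reach 86.4 to 95.1 FPKM and the control stacks 139 to 169 FPKM, and most of the gap is in Mbp and Cnp.

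Most of the early genes fell and the late genes were not called. All 4 early genes had cKO libraries below the controls, against 5.86% of all tested genes, and 3 of them fell, against 0.207%. None (0) of the 3 late genes was called or had groups that did not overlap. By DESeq2 and limma-voom, too, none (0) of the late genes was called. None (0) had an unadjusted p under 0.05 by the main edgeR fit or limma-voom, against 1 by DESeq2 (Mobp, unadjusted p = 0.0138). In other edgeR fits of all libraries, Mobp had an unadjusted p of 0.0494 without TMM and 0.0429 with the replicate number as a block. The median log2 fold change was -0.87 over the early genes and -0.00 over the late genes. With 3 late genes that median is the value of Mog, and the late gene Mobp, at -0.65, lay lower than the early genes Cnp at -0.52 and Tspan2 at -0.33, though with an interval that included 0. Mean log2 CPM of the early genes was 5.28, 5.44 and 5.50 in cKO replicates 1, 2 and 3, and 6.26, 6.01 and 6.42 in control replicates 1, 2 and 3. For the late genes it was 2.53, 2.65 and 2.60 in the cKO replicates and 2.43, 2.55 and 3.13 in the controls, where replicate 3 was the high one.

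Taken within each mouse, the early mean minus the late mean was 2.75, 2.78 and 2.90 log2 units in cKO replicates 1, 2 and 3, and 3.83, 3.46 and 3.29 in control replicates 1, 2 and 3. All cKO values lay below all control values, by 0.72 on average. With Cldn11 and Pllp counted as late, the late median was -0.50 and the early minus late difference -0.40 for cKO minus control. The ratio of Mbp to Mog in CPM was 13.6, 15.4 and 16.6 in the cKO replicates and 48.05, 28.9 and 36.1 in the controls. The ratio of Pllp to its relative Mal was 2.03, 1.43 and 1.44 in the cKO replicates and 5.69, 4.59 and 3.23 in the controls. The genes and classes were chosen with earlier results of these data known, so these contrasts are descriptions and were given no test.

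**Figure D5:**
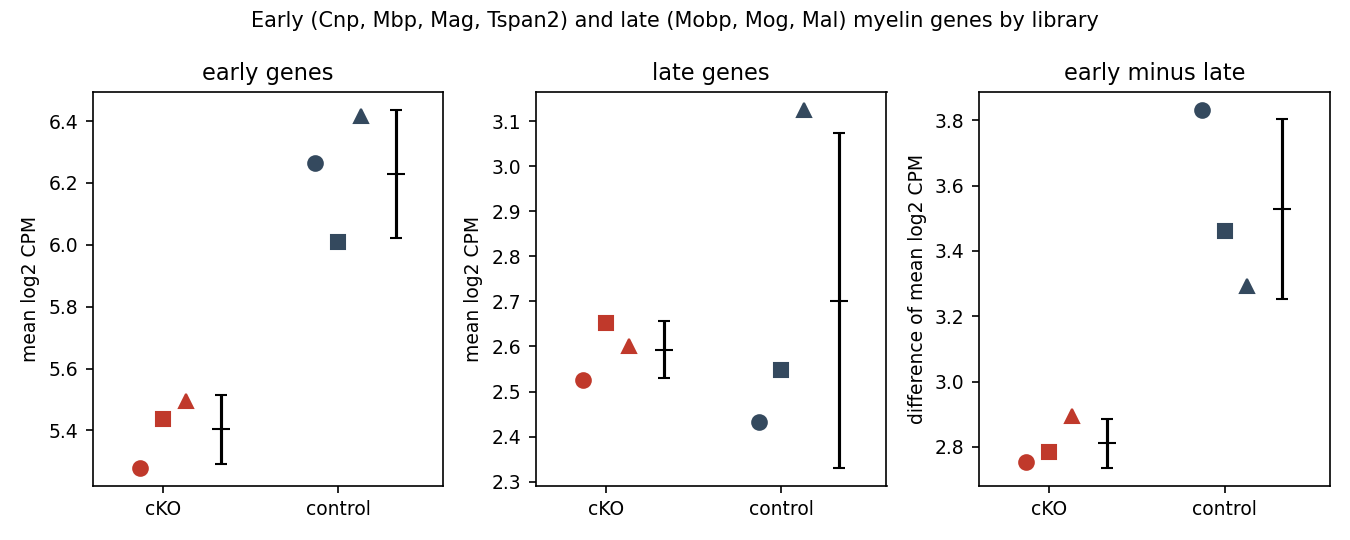
Mean log2 CPM of the early genes (left panel), of the late genes (middle panel) and the difference of the means (right panel) in each cKO and control library; symbols give the replicate, bars the mean ± SD, and the y axes do not start at 0. The groups stand apart for the early genes and for the difference, and overlap for the late genes, where control replicate 3 is highest at 3.13.

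Within the 9 genes, patterns over the 6 libraries were compared by the root mean square difference of log2 CPM after each gene was centred on its own mean. Mbp and Mag were closest at 0.13 log2 units, then Cnp and Tspan2 at 0.18 and Mbp and Pllp at 0.20. Pllp and Mal were farthest apart at 0.77. Outside the 9, the genes closest to Mbp were Ugt8a, which makes the myelin lipid galactosylceramide, Sox10, a transcription factor of the lineage, Bfsp2, Prkcq and Tmem88b, at 0.13 to 0.20 against a median of 0.65 over 15232 genes. Closest to Mog were Nme7, A930017M01Rik, Zfp551, Zbtb10 and Zfp963, at 0.04 to 0.06 against a median of 0.23. Their log2 fold changes were from -0.06 to 0.05, and none of these 5 was called. The distances rest on 6 libraries in 2 groups and describe likeness only.

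Among other listed genes of oligodendrocytes, not all of them particular to the myelinating stage, some fell and most were not called. Of 32 listed genes 28 were tested. Of these 28, 7 fell, against 0.207% of all tested genes, and none (0) rose, against 0.059%. The other 21 were not called, and the median log2 fold change over the 28 was -0.09. Those that fell were Bcas1, Sox10, Myrf, Enpp6, Gjc3, Ugt8a and Sirt2, with log2 fold changes from -2.25 for Bcas1 to -0.63 for Sirt2, both of which have exons that overlap genes on the opposite strand. Myrf, the transcription factor that switches on myelin genes, averaged 5.38 ± 0.332 CPM in cKO forebrains against 17.1 ± 2.48 CPM in control forebrains (SD, n = 3 each; edgeR adjusted p = 1.18e-04). At an unadjusted edgeR p under 0.05, 10 of the 28 were lower, against 2.75% of all tested genes, and 3 were higher, against 3.52%. The 3 higher ones were Apod, a lipid-binding lipocalin, Evi2a and Cryab, a small heat shock protein, with log2 fold changes of 0.87, 0.68 and 0.31 (edgeR adjusted p of 0.719, 0.790 and 0.719). In 9 of the 28, all cKO libraries lay below all controls, against 5.86% of tested genes. In 3 of the 28, Cryab, Apod and Ermn, all cKO libraries lay above all controls, against 6.08%. Among genes that were not called, Gal3st1, which sulphates galactosylceramide, came next by p with a log2 fold change of -0.91 and was not called (edgeR adjusted p = 0.0511). The 4 genes that were too low to test were Opalin, a mature oligodendrocyte membrane protein, with 1 to 2 counts in each cKO library and 3 to 5 in each control, Tmem125, with 2 to 7 counts in cKO libraries and 7 to 15 in controls, and Klk6 and Ninj2, with at most 4 counts in any library.

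Relatives of the 9 proteins by family were called at shares near those of all genes. None (0) of 30 claudins, tetraspanins, MARVEL and CMTM proteins, Gpm6 proteins and Siglecs passed by edgeR, DESeq2 or limma-voom, where 0.207% of all tested genes fell and 0.059% rose by edgeR. By edgeR 1 of the 30 was lower at an unadjusted p under 0.05, against 2.75% of all tested genes, and 1 of the 30 passed that threshold by DESeq2 and 2 by limma-voom. In 4 of the 30 all cKO libraries lay below all controls, against 5.86% of tested genes, and in 0 they lay above. The gene lower by edgeR was Tspan15, a tetraspanin, which averaged 7.10 ± 0.136 CPM in cKO forebrains against 9.88 ± 1.74 CPM in control forebrains (SD, n = 3 each; edgeR log2 fold change -0.47, adjusted p = 0.507). Next by p were Cmtm4, Cldn3 and Tspan3, with log2 fold changes of -0.15, -0.50 and -0.11. The median over the 30 relatives was 1.3e-04.

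Markers of other cells were read beside these results. Of 12 tested genes listed for precursors, not all of them particular to that stage, 5 fell, against 0.207% of all tested genes. These were C1ql1, Neu4, Tnr, Gpr17 and Olig2. Cspg4 came next by p, with a log2 fold change of -0.81, and was not called (edgeR adjusted p = 0.118). The median log2 fold change of the 12 was -0.59. Their summed level was 767 to 937 CPM in cKO libraries and 1201 to 1243 CPM in controls. At an unadjusted edgeR p under 0.05, 11 of the 12 were lower, against 2.75% of all tested genes, and 0 were higher, against 3.52%. In 10 of the 12, Pdgfra among them, all cKO libraries lay below all controls, against 5.86% of tested genes. Pdgfra, whose promoter drove the Cre, averaged 119 ± 17.7 CPM in cKO forebrains against 163 ± 14.9 CPM in control forebrains (SD, n = 3 each; edgeR adjusted p = 0.253). Its exons, and those of Tnr and Gpr17, also overlap genes on the opposite strand. The part of precursor number in the myelin gene levels was not tested. No gene (0) was called among 10 astrocyte, 10 neuron, 8 endothelial, 10 microglial, 10 striatal, 10 thalamic or 5 blood genes by edgeR. At an unadjusted edgeR p under 0.05 the microglial list had 7 higher, the thalamic list 1 higher and 1 lower, the astrocyte list 1 lower, and the other 4 lists 0, where 3.52% of all tested genes were higher and 2.75% lower. Summed neuronal levels were 6711 to 7119 CPM in cKO and 6730 to 7291 CPM in controls, and summed astrocyte levels 3840 to 4186 CPM in cKO and 3690 to 4039 CPM in controls, so genes of both main forebrain cell classes were present in each library. Summed endothelial levels were 271 to 334.5 CPM in cKO and 286 to 304 CPM in controls. Summed microglial levels were 327 to 388 CPM in cKO and 223 to 314.5 CPM in controls, and summed blood levels 9.46 to 114 CPM in cKO and 7.99 to 187 CPM in controls. Schwann cells, the myelin-forming cells of peripheral nerve, share several of these 9 genes. Of their 10 markers 7 were tested and none (0) was called (1 higher at an unadjusted edgeR p under 0.05), with sums over these 7 of 49.7 to 55.2 CPM in cKO and 42.3 to 49.6 CPM in controls.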

How the data were processed

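Forebrain mRNA was captured on poly-T beads and sequenced from strand-specific libraries, per the labels' protocols. CASAVA, STAR 2.5, HTSeq 0.6.1, DESeq and mm10 are named, without roles, in the submitters' processing notes; neither strand setting nor annotation release is given in the sources used here. The deposited counts are whole reads per Ensembl gene. The deposited FPKM values equalled those counts divided by 1 length per gene and the library total, and this length was whole within 0.01 bp in 100% of values. Names came from GENCODE M21 for 34490 of 35275 identifiers.

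Counts were tested with edgeR 4.0.16 in R 4.3.3, after filterByExpr (minimum count 10, minimum total 15) and TMM scaling, by the quasi-likelihood test with robust dispersion, two-sided, for 3 cKO against 3 control mice. Benjamini-Hochberg adjustment ran over all 16938 tested genes, and genes were called at an adjusted p under 0.05. Log2 CPM used a prior count of 2. Alternatives were other scaling, other filters, DESeq2 1.42.0, limma 3.58.1 with voom or on log2(FPKM + 1) and log2(FPKM + 0.1), a replicate block and each library left out. Groups of 3 against 3 allow no exact two-sided permutation p under 0.1, so none is given.

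The 9 genes, the gene lists and the timing classes were chosen with earlier results of these data known. Genes outside the 9 were named by p within their list, by likeness of pattern to Mbp or Mog (mean of at least 1 CPM), or because all genes of a small count are given; Myrf, Dnajc7 and Tspan2os were chosen after their values were seen.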

Additional observations from a re-analysis of the deposited data

How the results depend on the processing

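Mbp and Pllp passed in all 16 alternatives, with log2 fold changes from -1.36 to -1.14 and -1.34 to -1.11. The count of 4 called genes was 2 on the FPKM scale under log2(FPKM + 1), log2(FPKM + 0.1) and log2(FPKM + 1) without a filter, where Mag (limma adjusted p of 0.0728 to 0.216) and Cnp (0.132 to 0.336) did not pass; it was 2 to 4 with 1 library left out. Cnp also missed the threshold with a mean of at least 1 CPM (edgeR adjusted p = 0.0584) and by limma-voom (0.0623). The sign of Mog, at -0.00, turned to 0.0034 without a filter, 0.050 by limma-voom, 0.0168, 0.0241 and 0.0168 under those 3 FPKM settings and 0.0132 with the block, and ran from -0.17 to 0.11 with 1 library left out. With Cldn11 and Pllp counted as late, the late median moved to -0.50 and the early minus late difference to -0.40. Over the 16 alternatives, the count of 7 other oligodendrocyte genes became 9 without a filter and by DESeq2 and 8 without control replicate 3, and the count of 0 family relatives did not change.

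Deviations of same-numbered libraries from their group means correlated at 0.0043, -0.046 and 0.0069, and cKO replicate 1 correlated best with control replicate 2. With 3 libraries per group these deviations are bound to each other, so the values cannot tell whether the replicate numbers pair the mice. With the replicate number as a block, 3 of the 9 genes were called, Cnp not among them (edgeR adjusted p = 0.282), and 27 genes fell and 5 rose over all genes, against 35 and 10. The counts over all genes moved more: 61 fell and 50 rose without a filter, 62 and 51 by DESeq2, 45 and 17 by limma-voom, 18 to 20 and 3 to 4 on the FPKM scale, and 24 to 44 and 4 to 19 with 1 library left out. Mal, Mobp, Mog, Mag and Cldn11 had the fewest counts of the 9 genes, from 72 to 355 per library. The part of depth in their results was not tested.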
